A study of Homo sapiens with 16 samples.

Results

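Aminoacyl-tRNA synthetases, the enzymes that join each amino acid to its transfer RNA, were followed across SW620 cells with and without a hairpin against ATF4, before and during 5-fluorouracil (5-FU). The set was chosen by name from the protein-coding genes of the count table. It has 40 genes of the 58735 in the table: 20 for the cytosolic enzymes, 16 for the mitochondrial enzymes, and 4 accessory genes. The accessory genes are XPOT, which exports tRNA from the nucleus, and AIMP1, AIMP2 and EEF1E1, which encode the non-enzyme scaffold proteins of the multi-synthetase complex. All 40 passed the filter on low counts, as did 17309 of all genes.

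SW620 is a colorectal cancer cell line. The shATF4 line carried a short hairpin RNA against ATF4 and the scramble line a control hairpin, and each was sequenced untreated (3 libraries), after 24 h in 5 µM 5-FU (3 libraries) and after 48 h in 5 µM 5-FU (2 libraries). 5-FU is a pyrimidine analogue used against colorectal cancer, which starves cells of thymidylate and also enters their RNA, and the series asks about ATF4 and resistance to chemotherapy. The untreated libraries carry no time, and they were the baseline for both times, so time in culture and drug cannot be told apart. The 4 libraries titled 48 h carry a treatment tag of 24 h, and they were placed at 48 h by their titles and the design text. A single hairpin line was set against a single control line, so loss of ATF4 and other differences between the lines cannot be told apart. Whether replicates came from separate cultures is not stated, and the p-values cover the spread among these libraries alone, and that spread may be technical.

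For most amino acids cells keep separate enzymes for protein synthesis in the cytosol and in mitochondria, all of them encoded in the nucleus. GARS and KARS are known to supply both compartments from a single gene, and EPRS carries the activities for glutamate and proline in 1 chain. When an amino acid runs short, uncharged tRNA activates the kinase GCN2, eIF2α is phosphorylated, and the transcription factor ATF4 is translated. ATF4 binds composite C/EBP-ATF elements and is known to drive many cytosolic synthetase genes, while mitochondrial synthetase genes are not usually counted among its targets.

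Promoters of 34 of the 40 genes were found in a table of RefSeq windows on GRCh38.p14, each running from 250 bases before the annotated start to 50 bases after it. DARS, LARS, VARS, YARS, AARS2 and VARS2 were not among them. The C/EBP-ATF motif, spelled TGATGNAA and searched on both strands, was present in 8 of the 34. Of these 7 were among the 16 matched cytosolic genes, 1 was among the 14 matched mitochondrial genes, and 0 were among the 4 accessory genes. The same motif was in 4.46% of the 27305 genes in the table and in 3.62% of its 35116 windows. A match is a run of letters and does not show that a factor binds there. The 7 cytosolic stretches and the mitochondrial one are shown because the knockdown results are read beside them. Each is written 5′ to 3′ on the strand of the gene, with the motif in capitals (TTGCATCA and TTTCATCA are its reverse complement).
GARS, chr7:30594809-30594877, plus strand: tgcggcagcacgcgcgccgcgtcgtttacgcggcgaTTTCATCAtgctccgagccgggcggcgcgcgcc
CARS, chr11:3057407-3057436, minus strand: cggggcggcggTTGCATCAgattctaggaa
IARS, chr9:92293698-92293746, minus strand: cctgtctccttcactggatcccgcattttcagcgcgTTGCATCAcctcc
MARS, chr12:57488053-57488082, plus strand: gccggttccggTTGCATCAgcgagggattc
TARS, chr5:33440956-33440985, plus strand: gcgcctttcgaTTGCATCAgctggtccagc
NARS, chr18:57621804-57621833, minus strand: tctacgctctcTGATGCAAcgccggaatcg
AARS, chr16:70289650-70289729, minus strand: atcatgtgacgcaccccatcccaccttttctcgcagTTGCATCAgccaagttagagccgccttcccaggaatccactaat
YARS2, chr12:32756051-32756130, minus strand: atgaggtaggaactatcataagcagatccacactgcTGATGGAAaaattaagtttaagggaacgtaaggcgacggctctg

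The motif lay close to the annotated start in most of them. Counting the start base as 0, its first base was at -33 in GARS, -2 in CARS, -13 in IARS, -4 in MARS, 2 in TARS and 14 in NARS. It was farther upstream in AARS (-187) and YARS2 (-197). All 7 cytosolic genes with the motif belong to a list of 13 members known from earlier work as ATF4 targets, of which 11 had a promoter entry, and 0 of the 6 matched cytosolic genes outside that list had it.

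Library totals ran from 14571611 to 17824188 counts, and the 40 genes took 0.489% to 0.618% of them. Single members had 24 to 12987 counts in a library. To check the cell type, 9 colorectal epithelial markers summed to 6510 to 12500 CPM (counts scaled to a fixed, TMM-adjusted library total), against 3.29 to 33 CPM for 5 leukocyte markers (1 of them at 0 in all libraries), 3.67 to 13.8 CPM for 4 endothelial markers and 35.4 to 63.9 CPM for 5 fibroblast markers. Keratins made up most of the epithelial sum, with means of 5430 (KRT8), 1980 (KRT18) and 1230 CPM (KRT19). EPCAM, VIL1 and CDH1 had 453, 349 and 300 CPM. The other epithelial markers were low, at 16.6 (CDX2), 9.13 (CEACAM5) and 0.389 CPM (LGALS4). Among fibroblast markers LUM had 30.6 and COL1A1 14.8 CPM. A pair of libraries stood apart. In scramble untreated replicate 2 mitochondrially encoded mRNAs took 1.42% of counts, against 0.753% and 0.766% in the other 2 replicates, and in shATF4 24 h replicate 3 the RN7SL genes (signal recognition particle RNA) took 0.0726%, against 0.0241% and 0.0251%. ATF4 itself had 171.8, 168.6 and 178.7 CPM in untreated shATF4 libraries, against 387.7, 363.6 and 383.7 CPM in untreated scramble libraries. At 24 h it had 91.1, 108.6 and 130.4 CPM in shATF4 libraries against 270.1, 285.3 and 280.1 CPM in scramble libraries. At 48 h it had 114 and 118.1 CPM in shATF4 libraries against 331.1 and 332.8 CPM in scramble libraries.

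Levels between members were compared as CPM per kb of gene length, averaged over the 16 libraries. KARS, the lysine enzyme (chr16:75627474-75648643, minus strand, GRCh38), was highest at 164.2 ± 31.5 (SD over 16 libraries). AARS, the alanine enzyme, followed at 107.2 ± 13.2 and FARSA, the catalytic subunit for phenylalanine, at 70.6 ± 11.8, next to TARS, the threonine enzyme, at 70.2 ± 12.2. Each SD covers all 6 groups, so it holds the change with 5-FU and is not a replicate spread. KARS stood above AARS by more than either SD on this average, but at 48 h they were close. They had 112.4 ± 2.08 and 111.6 ± 2.95 in shATF4 cells, and 120.1 ± 2.06 and 122.1 ± 1.39 in scramble cells. FARSA and TARS had close means. The lowest was SARS2, the mitochondrial serine enzyme (chr19:38915266-38930896, minus strand), at 1.15 ± 0.48, below FARS2 at 3.39 ± 0.93. Cytosolic enzymes had a median of 32.3 and mitochondrial enzymes of 10.7 CPM per kb, with 18.1 for the accessory genes. Of the 20 cytosolic enzymes 16 were among the top 20 of the ranking, and of the 16 mitochondrial ones 2 were, IARS2 at 48.7 ± 17.3 and YARS2 at 29.6 ± 3.5. Middle ranks lay close together on this average: IARS, SARS and EPRS stood at 38.7 ± 11, 38.1 ± 3.17 and 37.5 ± 9.03. Within groups the order could differ. In scramble cells IARS had 52.1 ± 3.14 and SARS 41.1 ± 0.98 untreated, against 27.7 ± 0.29 and 38.1 ± 2.1 at 48 h.

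Reads of overlapping genes can be shared, because the sources used here do not give the strand setting of the counting. Of the 40 members 32 overlap another gene in the annotation, and for 11 the overlapping gene held at least 10% as many counts as the member. SARS2 overlaps MRPS12 (2000% of its counts), the scaffold gene AIMP2 overlaps EIF2AK1 (485%), HARS2 overlaps HARS (348%), EARS2 overlaps UBFD1 (271%) and YARS2 overlaps DNM1L (224%). The rest of the 11 were WARS2 (AL359915.2, 67.9%), CARS2 (ING1, 44.1%), HARS (WDR55, 42.7%), KARS (TERF2IP, 27.2%), AIMP1 (TBCK, 22.8%) and YARS (S100PBP, 12.1%). These percentages set the whole count of the neighbour against that of the member, for any overlap of the gene spans. They do not measure how many reads were shared. The values of these 11 members are thus uncertain by an unknown amount. MARS overlaps DDIT3, which had 5.07% as many counts, and GARS overlaps GARS-DT (5.22%).

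**Figure D1:**
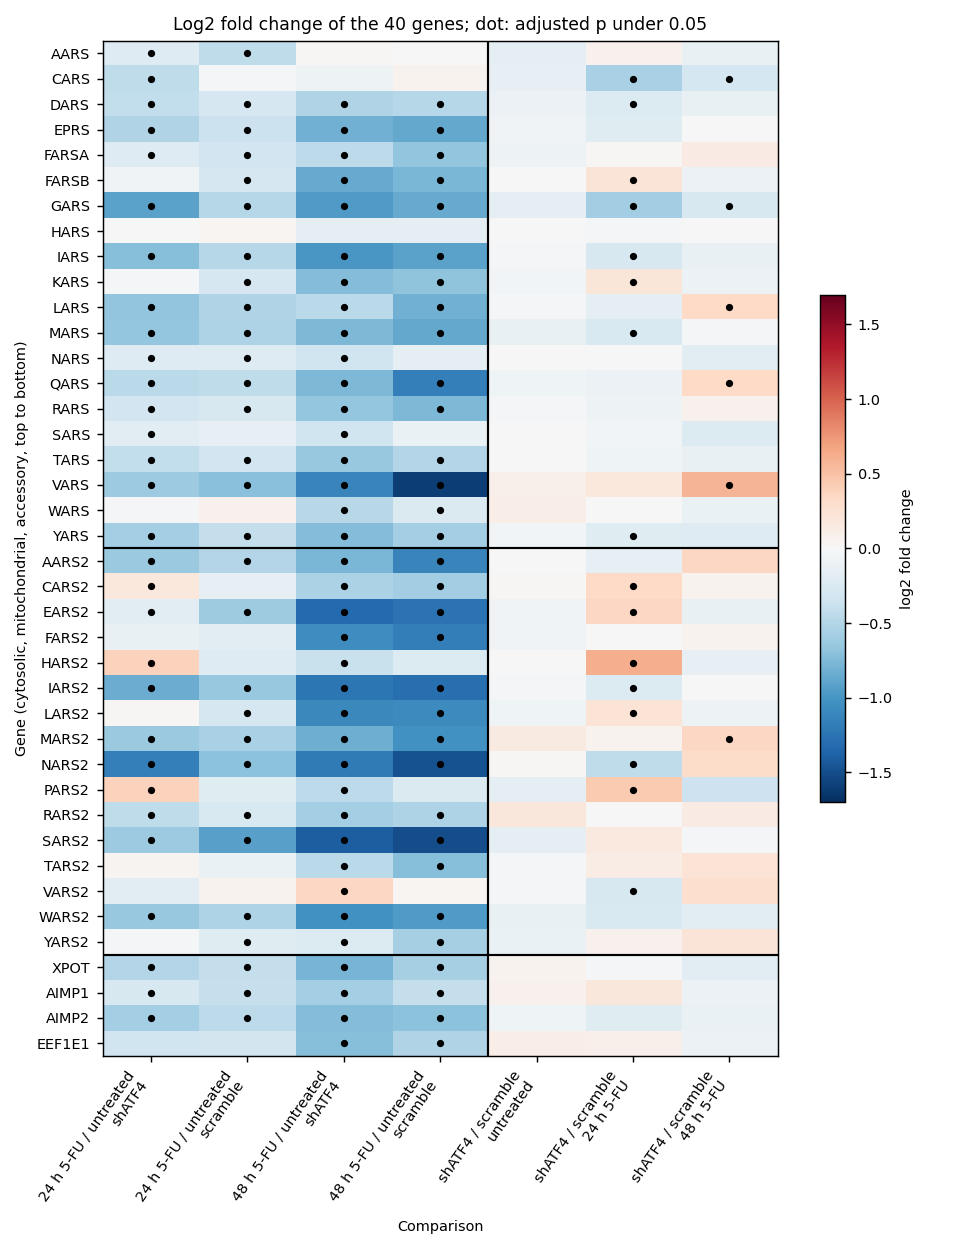
Log2 fold changes of the 40 genes (rows: cytosolic, mitochondrial, accessory) in 7 comparisons (columns), with a dot where the adjusted p was under 0.05. The columns for 5-FU against untreated are blue for most members in both lines, and the untreated shATF4 against scramble column has no dot.

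Most synthetase mRNAs were lower in 5-FU than in untreated cells of both lines, and most members were lower at 48 h than at 24 h. In shATF4 cells 27 of 40 fell and 3 rose at 24 h, and 36 fell and 1 rose at 48 h. In scramble cells 29 fell and 0 rose at 24 h, and 32 fell and 0 rose at 48 h. Over all genes 44.4% were called in shATF4 cells at 24 h and 58.3% at 48 h (23.2% higher and 21.2% lower at 24 h, 29.6% higher and 28.7% lower at 48 h). In scramble cells 44.0% were called at 24 h and 60.7% at 48 h (21.8% higher and 22.2% lower at 24 h, 30.6% higher and 30.0% lower at 48 h). The shares of lowered members were thus above the background in each of these comparisons. Calls were made at an adjusted p under 0.05 in the quasi-likelihood test of edgeR, adjusted by Benjamini-Hochberg over all genes. The median log2 change of the 40 members was -0.38 at 24 h and -0.73 at 48 h in shATF4 cells (all genes 0.03 and 0.03), and -0.33 and -0.69 in scramble cells (all genes -0.01 and 0.03). Under upper-quartile scaling the median of all genes moved by 0.13 at 48 h in shATF4 cells and by 0.14 in scramble cells, and 61.2% and 61.4% of called genes were higher, against 50.7% and 50.5%. At 24 h in scramble cells that split was 60.1% against 49.5%. In these bulk samples fewer cells with a transcript and less of it per cell cannot be told apart.

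The 3 members that rose at 24 h in shATF4 cells were all mitochondrial: PARS2 for proline (0.40 ± 0.12, adjusted p = 0.00796), HARS2 for histidine (0.39 ± 0.09, adjusted p = 0.00179) and CARS2 for cysteine (0.18 ± 0.07, adjusted p = 0.0333). PARS2 lost its call without shATF4 24 h replicate 3 (adjusted p = 0.0522). CARS2 lost its call in 11 of 23 alternatives (adjusted p = 0.0539 to 0.126), among them the removal of any 1 untreated shATF4 library. CARS, the cytosolic counterpart of CARS2, fell in the same comparison.

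The lines shared no libraries. The overlap of lowered genes between the lines was not counted over all genes, so the shares given here have no background. At 24 h 25 members fell in both lines, 92.6% of the shATF4 list and 86.2% of the scramble list. CARS and SARS fell in shATF4 cells alone by this count, and FARSB, KARS, LARS2 and YARS2 in scramble cells alone. At 48 h 32 members fell in both, 88.9% of the shATF4 list and 100% of the scramble list, and HARS2, NARS, PARS2 and SARS were on the shATF4 list alone. Membership of a single list does not show that the lines differed, which the interaction contrasts below test.

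**Figure D2:**
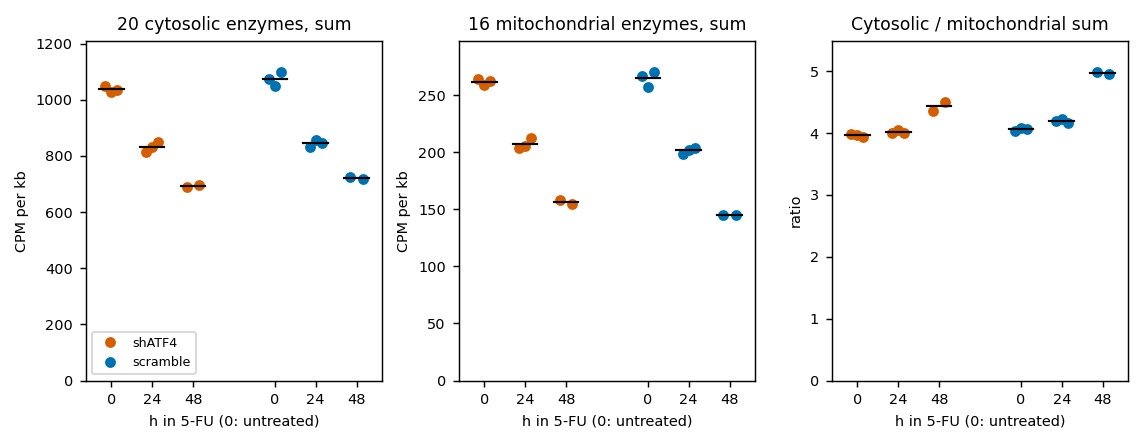
Summed level (CPM per kb) of the 20 cytosolic and of the 16 mitochondrial enzymes, and their ratio, in each library (points) with group means (lines), by h in 5-FU, shATF4 left of scramble. Both sums are lowest at 48 h, and the ratio is highest at 48 h, at 4.365 and 4.504 in shATF4 libraries and 4.948 and 4.994 in scramble libraries. The ratio leans on IARS2, the largest part of the mitochondrial sum.

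At 48 h the median fall of the mitochondrial enzymes was larger than that of the cytosolic ones, a difference that was not tested. In shATF4 cells the mitochondrial median was -0.80 and the cytosolic one -0.65, and in scramble cells they were -0.99 and -0.68. At 24 h the order was the other way, with mitochondrial and cytosolic medians of -0.19 and -0.41 in shATF4 cells and of -0.27 and -0.33 in scramble cells. At 48 h 7 mitochondrial and 1 cytosolic enzyme were more than 2-fold lower in shATF4 cells, and 8 mitochondrial and 2 cytosolic enzymes in scramble cells. The cytosolic ones were VARS in both lines and QARS in scramble cells.

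Summed over the enzymes, the cytosolic level in shATF4 cells was 1037 ± 12.1 untreated, 832.2 ± 16.7 at 24 h and 692.7 ± 3.89 CPM per kb at 48 h (SD, n = 3, 3 and 2). In scramble cells it was 1074 ± 25.7, 845 ± 11.8 and 720.1 ± 5.94 CPM per kb. The mitochondrial sum was 261.7 ± 2.71, 207.1 ± 4.41 and 156.2 ± 2.59 CPM per kb in shATF4 cells and 264.7 ± 6.92, 201.4 ± 2.43 and 144.9 ± 0.26 CPM per kb in scramble cells. No library of 1 time overlapped with another time of the same line in either sum. The ratio of the sums had a mean of 3.96, 4.02 and 4.44 in shATF4 cells and of 4.06, 4.20 and 4.97 in scramble cells, untreated, at 24 h and at 48 h. The 48 h libraries of each line lay above all of its other libraries, and the shATF4 48 h libraries lay below the scramble 48 h libraries. The 24 h ratios of each line lay above its untreated ones, although the 24 h median fall was larger for the cytosolic enzymes. IARS2 was the largest part of the mitochondrial sum. It went from 68.25 CPM per kb untreated to 38.17 at 24 h and 29 at 48 h in shATF4 cells. In scramble cells it went from 69.96 to 44.9 and 28.84. The ratio thus leans on this gene at both times, and it was not recomputed without it. Its rises therefore do not show a shift of the mitochondrial enzymes as a class. No test was made of these sums.

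**Figure D3:**
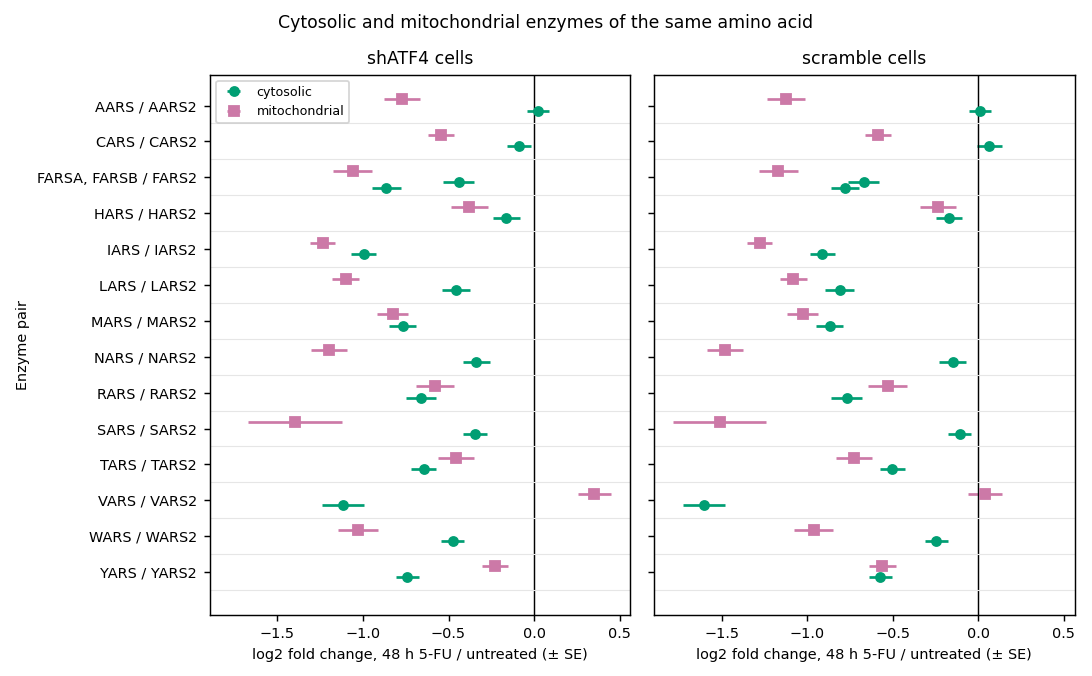
Log2 fold change at 48 h of 5-FU against untreated (± SE) for the cytosolic (circles) and mitochondrial (squares) enzyme of each amino acid, shATF4 cells left and scramble cells right. Most squares lie left of their circles, with VARS and VARS2 the other way round in both lines.

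Taken amino acid by amino acid, 15 cytosolic genes could be paired with a mitochondrial one, FARSA and FARSB both with FARS2. The mitochondrial enzyme had the lower log2 change at 48 h in 11 of the 15 pairs in shATF4 cells and in 12 in scramble cells. At 24 h that held for 7 pairs in shATF4 cells and 8 in scramble cells. The valine pair went the other way at 48 h: VARS, the cytosolic enzyme, fell by 1.12 ± 0.12 in shATF4 cells (log2, ± SE, adjusted p = 9.76e-08), while VARS2 rose by 0.35 ± 0.10 (adjusted p = 0.00417). The VARS2 call was lost without shATF4 48 h replicate 2 (adjusted p = 0.076). In scramble cells VARS fell by 1.61 ± 0.12 (adjusted p = 5.6e-10), and VARS2 had 0.04 ± 0.10 (adjusted p = 0.772).

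VARS (chr6:31777518-31795953, minus strand) had 373.8, 396.4 and 413.9 CPM in untreated shATF4 libraries, 280.5, 286.5 and 205.7 CPM at 24 h and 173 and 191.1 CPM at 48 h. In scramble libraries VARS had 348.5, 422.5 and 345.6 CPM untreated, 216.1, 250.2 and 217.9 CPM at 24 h and 116.8 and 127.9 CPM at 48 h. Every treated library was below every untreated library of its line. At 24 h VARS fell in both lines, by 0.62 ± 0.10 in shATF4 cells (adjusted p = 6.5e-05) and by 0.71 ± 0.10 in scramble cells (adjusted p = 1.34e-05).

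Among mitochondrial enzymes the largest falls at 48 h were those of SARS2, EARS2, IARS2 and NARS2 in shATF4 cells, and of SARS2, NARS2 and IARS2, beside VARS, in scramble cells. EARS2 charges mitochondrial tRNA for glutamate. It had 73.8, 74.4 and 76.9 CPM in untreated shATF4 libraries, 66.4, 67.0 and 64.1 CPM at 24 h and 28.3 and 31.6 CPM at 48 h. Scramble libraries had 77.2, 79.7 and 77.8 CPM untreated, 53.5, 49.2 and 51.8 CPM at 24 h and 32.1 and 33.2 CPM at 48 h. The 24 h libraries of the 2 lines did not overlap, and the 48 h fall was 2.51-fold in shATF4 cells (log2 -1.33 ± 0.08, 2 against 3 libraries, adjusted p = 1.93e-11) and -1.26 ± 0.08 on the log2 scale in scramble cells (adjusted p = 2.56e-11).

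IARS2, the mitochondrial isoleucine enzyme (chr1:220094102-220148041, plus strand), had 294.5, 274.5 and 283.8 CPM in untreated shATF4 libraries, 164.8, 157.6 and 154.5 CPM at 24 h and 122.5 and 119.1 CPM at 48 h. Its scramble levels were 290.9, 272.7 and 310.7 CPM untreated, 190.3, 179.1 and 191.7 CPM at 24 h and 119.9 and 120.4 CPM at 48 h. The lines met at 48 h and were apart at 24 h, where the shATF4 libraries were lower. It was 1.79-fold lower at 24 h (adjusted p = 1.59e-09) and 2.35-fold lower at 48 h (adjusted p = 1.47e-11) in shATF4 cells, and 1.56-fold (adjusted p = 5.95e-08) and 2.43-fold lower (adjusted p = 5.75e-12) in scramble cells.

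NARS2, the mitochondrial asparagine enzyme, was the member with the largest fall at 24 h in shATF4 cells, 27.7 ± 2.89 CPM against 61.7 ± 3.15 CPM untreated (SD, n = 3 each; log2 -1.16 ± 0.09, adjusted p = 3.46e-09). In scramble cells it had 37.3 ± 2.24 CPM at 24 h against 60.7 ± 4.73 CPM untreated (-0.70 ± 0.09, adjusted p = 2.2e-06). At 48 h it had 28.9 and 24.8 CPM in shATF4 libraries and 21.3 and 22.1 CPM in scramble libraries, so the library levels changed order between the times. The 48 h difference between the lines was not called (log2 0.31). NARS2 was not called in the interaction at 24 h (-0.46) or at 48 h (0.28). SARS2 rests on few reads: it had 1.3 and 2.6 CPM in 48 h shATF4 libraries against 4.9, 5.7 and 4.7 CPM untreated (log2 -1.40 ± 0.27, adjusted p = 0.00017). Scramble libraries had 1.8 and 2.2 CPM of it at 48 h, against 5.7, 6.5 and 4.9 CPM untreated (-1.51 ± 0.27, adjusted p = 6.42e-05).

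The cytosolic enzymes ranged widely. Of the 20, 17 fell at 48 h in shATF4 cells and 15 in scramble cells, with VARS, IARS, GARS and FARSB the lowest in shATF4 cells. IARS, the cytosolic isoleucine enzyme (chr9:92210207-92293756, minus strand), had 396.3, 369.7 and 360.9 CPM in untreated shATF4 libraries, 236.9, 233.2 and 214.8 CPM at 24 h and 188 and 188.8 CPM at 48 h. Levels in scramble libraries were 386.8, 361.9 and 408.3 CPM untreated, 268.3, 278.2 and 282.3 CPM at 24 h and 203.3 and 206.4 CPM at 48 h. All treated libraries were below all untreated ones, with falls of 1.65-fold at 24 h in shATF4 cells (log2 -0.72 ± 0.06, adjusted p = 1.53e-08) and of 0.48 ± 0.06 on the log2 scale in scramble cells (adjusted p = 2.97e-06).

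Some cytosolic members did not pass at 48 h in either line. AARS, CARS and HARS, the enzymes for alanine, cysteine and histidine, had log2 changes of 0.02 ± 0.06, -0.09 ± 0.07 and -0.16 ± 0.08 in shATF4 cells (adjusted p = 0.778, 0.296 and 0.0796) and of 0.01 ± 0.06, 0.06 ± 0.07 and -0.17 ± 0.08 in scramble cells (adjusted p = 0.931, 0.448 and 0.0605). NARS and SARS had -0.15 ± 0.08 and -0.11 ± 0.07 in scramble cells (adjusted p = 0.0925 and 0.178) but fell in shATF4 cells (-0.34 ± 0.08, adjusted p = 0.000775, and -0.34 ± 0.07, adjusted p = 0.000234). The difference between the lines did not pass for either of them (interaction adjusted p = 0.439 and 0.23).

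AARS (chr16:70252295-70289543, minus strand) went down and came back. It had 486.1, 487.5 and 507.9 CPM in untreated shATF4 libraries, 417.1, 406 and 451 CPM at 24 h and 492.5 and 511.2 CPM at 48 h. The scramble line had 550.1, 564.1 and 525.3 CPM untreated, 399.4, 419.5 and 396 CPM at 24 h and 544.9 and 553.7 CPM at 48 h. All 24 h libraries were below all others of their line. The fall at 24 h was 0.22 ± 0.06 in shATF4 cells (log2, adjusted p = 0.00439) and 0.43 ± 0.06 in scramble cells (adjusted p = 4.15e-06). At 48 h it stood above 24 h by 0.24 ± 0.06 in shATF4 cells (adjusted p = 0.00412) and by 0.44 ± 0.06 in scramble cells (adjusted p = 1.81e-05). The shATF4 value missed the threshold with only the compared groups fitted (adjusted p = 0.0708).

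Set beside 24 h, the 48 h libraries had 22 members lower and 4 higher in shATF4 cells, where 48.2% of all genes were called (23.7% higher and 24.5% lower), and 25 lower and 1 higher in scramble cells, where 38.3% were (18.8% higher and 19.5% lower). Under upper-quartile scaling 60.2% of genes called in scramble cells were higher, against 49.1%. In shATF4 cells the members that rose were VARS2 (0.54 ± 0.10, adjusted p = 0.000125), CARS (0.35 ± 0.07, adjusted p = 0.000442), AARS, and LARS, the leucine enzyme (0.21 ± 0.08, adjusted p = 0.0381). The LARS call was lost without shATF4 24 h replicate 2 (adjusted p = 0.0922) and without either 48 h replicate, 1 or 2 (0.144 and 0.114). It was also lost with no filter on low counts (adjusted p = 0.103) and with only the compared groups fitted (0.0945). The mitochondrial partner of CARS and that of LARS fell in the same comparison, and VARS fell while VARS2 rose. LARS2 fell by 1.12 ± 0.08 (adjusted p = 9.46e-10), CARS2 by 0.72 ± 0.08 (adjusted p = 2.03e-07), and EARS2 had the largest fall (-1.14 ± 0.08, adjusted p = 7.77e-10). In scramble cells AARS rose and AARS2 fell, by 0.63 ± 0.11 (adjusted p = 0.00012). The largest falls there were those of FARS2 (-0.99 ± 0.11, adjusted p = 1.03e-06), VARS (-0.90 ± 0.12, adjusted p = 6.82e-06), LARS2 (-0.80 ± 0.08, adjusted p = 1.26e-07) and NARS2 (-0.78 ± 0.11, adjusted p = 7.94e-06).

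All 11 members of the multi-synthetase complex, 8 enzymes and the 3 scaffold proteins, fell at 48 h in both lines, with medians of -0.73 in shATF4 cells and -0.77 in scramble cells. Of the 12 cytosolic enzymes outside it 9 fell in shATF4 cells (median -0.46) and 7 in scramble cells (median -0.38). Over all genes 28.7% were lower at 48 h in shATF4 cells and 30.0% in scramble cells. The difference between genes inside and outside the complex was not tested. The scaffold gene EEF1E1 had -0.73 ± 0.19 in shATF4 cells (adjusted p = 0.00269) and -0.52 ± 0.19 in scramble cells (adjusted p = 0.0247). Its scramble call was lost without scramble untreated replicate 3, without either scramble 48 h library and under upper-quartile scaling (adjusted p up to 0.173). XPOT fell as well, by 0.79 ± 0.08 in shATF4 cells (adjusted p = 2.96e-08) and by 0.56 ± 0.08 in scramble cells (adjusted p = 2.57e-06).

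QARS, the cytosolic glutamine enzyme (chr3:49095932-49105135, minus strand), had 177.1, 166.6 and 170.6 CPM in untreated shATF4 libraries, 122.6, 122.1 and 129.1 CPM at 24 h and 95.2 and 107.5 CPM at 48 h. In scramble libraries it had 181.4, 184.6 and 173.4 CPM untreated, 132.7, 138.3 and 129.8 CPM at 24 h and 79.5 and 81.2 CPM at 48 h. The 48 h shATF4 libraries were above both 48 h scramble libraries. KARS, the member with the highest mean level per kb, had 790, 754 and 735.3 CPM in untreated shATF4 libraries, 706.9, 765.7 and 756.2 CPM at 24 h and 462.8 and 450.9 CPM at 48 h. In scramble libraries it had 777.3, 739.3 and 832.7 CPM untreated, 644.7, 650.1 and 639.1 CPM at 24 h and 494.2 and 482.4 CPM at 48 h. In shATF4 cells its 24 h libraries overlapped the untreated ones, and in scramble cells they did not.

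In untreated cells no member was called between the lines. Of the 40, 0 were called by edgeR's quasi-likelihood test or by DESeq2, where edgeR called 2.92% of all genes (1.08% higher and 1.84% lower), and 3 had an unadjusted p under 0.05 in edgeR: GARS (-0.16 ± 0.06, adjusted p = 0.227), AARS (-0.15 ± 0.06, adjusted p = 0.232) and CARS (-0.14 ± 0.06, adjusted p = 0.323). The share of all genes at that unadjusted threshold was not counted. Without both libraries that stood apart GARS alone was called. The median of the 40 was -0.04, and that of all genes was -0.01.

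**Figure D4:**
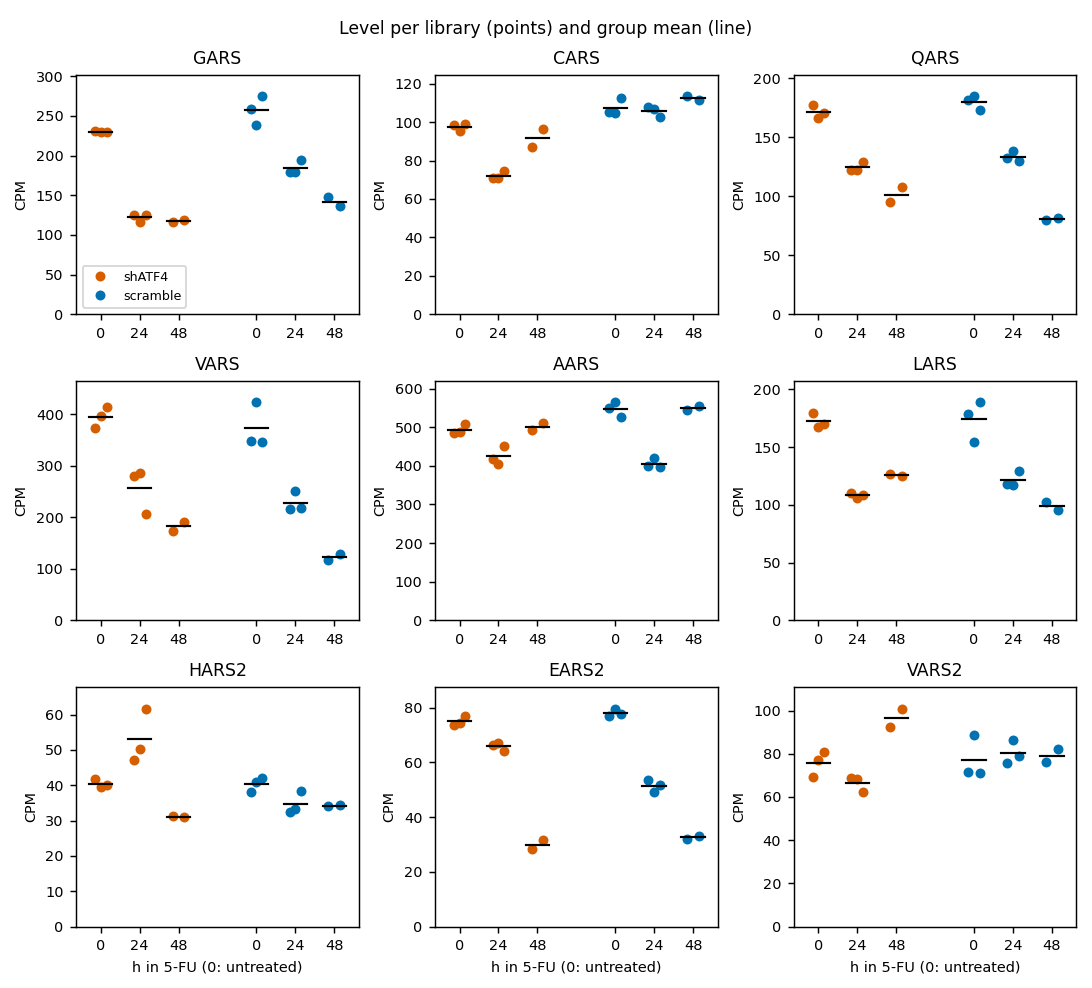
CPM of 9 members in each library (points) with group means (lines), by h in 5-FU, shATF4 in the left block and scramble in the right block of each panel. GARS and CARS are lower in the shATF4 24 h libraries than in the scramble ones, HARS2 and EARS2 are higher, and AARS dips at 24 h in both lines.

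During 5-FU some members differed between the lines. At 24 h 9 members were lower and 7 higher in shATF4 cells, in a comparison that called 20.4% of all genes (9.89% lower and 10.5% higher). The cytosolic enzymes made up 6 of the 9 lower members, and the mitochondrial enzymes 5 of the 7 higher ones. The cytosolic median was -0.08 and the mitochondrial one 0.07, against 0.01 for all genes. GARS and CARS had the largest falls, and HARS2 and PARS2 the largest rises.

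GARS, the glycine enzyme (chr7:30594681-30634033, plus strand), had 230.5, 229.1 and 229.8 CPM in untreated shATF4 libraries, 125, 116.5 and 125.3 CPM at 24 h and 116.9 and 118.6 CPM at 48 h. In scramble libraries it had 259.2, 239 and 274.6 CPM untreated, 179.4, 178.8 and 194.4 CPM at 24 h and 147.9 and 135.8 CPM at 48 h. The shATF4 libraries lay below the scramble libraries of the same time throughout. At 24 h the level was 1.51-fold lower, 122.3 ± 5.03 CPM in shATF4 cells against 184.2 ± 8.84 CPM in scramble cells (SD, n = 3 each; log2 -0.59 ± 0.07, adjusted p = 5.35e-06).

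CARS, the cysteine enzyme (chr11:3000922-3057613, minus strand), had 98.6, 95.4 and 98.8 CPM in untreated shATF4 libraries, 71.1, 70.8 and 74.5 CPM at 24 h and 87 and 96.6 CPM at 48 h. In scramble libraries it had 105.1, 104.9 and 112.7 CPM untreated, 107.6, 106.8 and 102.7 CPM at 24 h and 113.4 and 111.6 CPM at 48 h. The scramble line kept a near level across time while the shATF4 line was lowest at 24 h. The 24 h difference was 1.47-fold (72.1 ± 2.02 CPM in shATF4 cells against 105.7 ± 2.64 CPM in scramble cells; log2 -0.55 ± 0.06, adjusted p = 9.45e-06). CARS2, its mitochondrial counterpart, was higher in shATF4 cells by 0.34 ± 0.07 (adjusted p = 0.00141), so this amino acid had its 2 enzymes called in opposite directions.

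NARS2 (-0.43 ± 0.09, adjusted p = 0.00267), IARS (-0.28 ± 0.06, adjusted p = 0.00427) and MARS, the methionine enzyme (-0.26 ± 0.07, adjusted p = 0.00966), were lower as well. So were IARS2 (-0.23 ± 0.06, adjusted p = 0.0118), YARS (-0.21 ± 0.06, adjusted p = 0.0175), DARS (-0.23 ± 0.08, adjusted p = 0.0476) and VARS2 (-0.27 ± 0.09, adjusted p = 0.0359). In MARS the shATF4 libraries had 141.7, 152.7 and 167.1 CPM and the scramble libraries 174.4, 190.9 and 188.2 CPM, with no overlap. With only the compared groups fitted, MARS and YARS missed the threshold (adjusted p = 0.0543 and 0.0775). The DARS call was lost without any of 7 libraries taken singly and the VARS2 call without any of 4. AARS did not pass (0.07 ± 0.06, adjusted p = 0.435).

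On the higher side HARS2, the mitochondrial histidine enzyme, had 47.2, 50.3 and 61.7 CPM in shATF4 24 h libraries against 32.3, 33.2 and 38.4 CPM in scramble 24 h libraries. These did not overlap, and the difference was 1.53-fold (log2 0.62 ± 0.09, adjusted p = 0.00013), with the highest value in replicate 3, the library that stood apart. PARS2, for mitochondrial proline, had 15.2, 16.8 and 19.5 CPM in shATF4 libraries against 12.7, 12 and 13 CPM in scramble libraries (0.45 ± 0.11, adjusted p = 0.00849). EARS2 followed at 0.35 ± 0.07 (adjusted p = 0.00102), and LARS2 (0.23 ± 0.07, adjusted p = 0.0199), FARSB (0.22 ± 0.07, adjusted p = 0.0327) and KARS (0.20 ± 0.06, adjusted p = 0.0169) were smaller. The calls of LARS2, FARSB and KARS were each lost without any 1 of the 3 scramble 24 h libraries.

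RNA composition moved with this comparison. The RN7SL genes took 0.0241% to 0.0726% of counts in the shATF4 24 h libraries against 0.00522% to 0.00713% in the scramble 24 h libraries, and mitochondrial ribosomal RNA took 1.14% to 1.45% against 0.881% to 0.955%. Their part in the result was not tested. Without shATF4 24 h replicate 3 the counts were 8 lower and 6 higher.

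**Figure D5:**
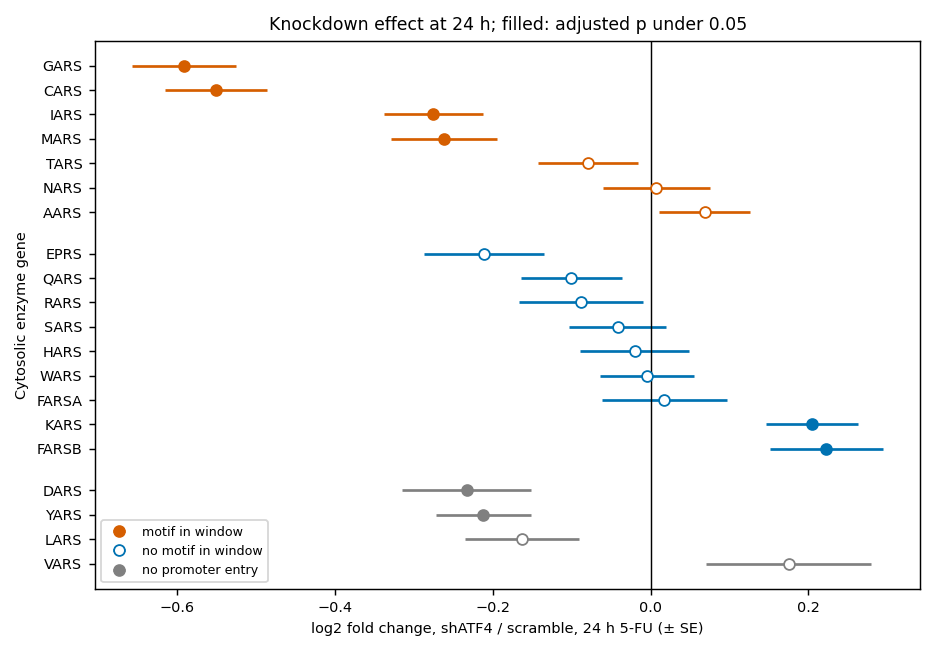
Log2 fold change of shATF4 against scramble at 24 h (± SE) for the 20 cytosolic enzymes, grouped by whether the C/EBP-ATF motif was found in the promoter window, with filled points where the adjusted p was under 0.05. The 4 filled points on the left of the first group are GARS, CARS, IARS and MARS, and the 2 filled points of the second group, KARS and FARSB, are on the right.

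Read beside the promoter sequences, 4 of the 7 cytosolic genes with the motif were lower in shATF4 cells at 24 h: GARS, CARS, IARS and MARS, with a median of -0.26 over the 7. AARS and TARS have the same 8 letters as CARS, IARS and MARS, and NARS has them as the reverse complement. AARS had 0.07 ± 0.06, TARS -0.08 ± 0.06 and NARS 0.01 ± 0.07, and none of them passed. Of the 9 cytosolic genes whose window had no motif 0 were lower and 2 were higher (FARSB and KARS), with a median of -0.02. Of the 4 without an entry DARS and YARS were lower. YARS2, the mitochondrial gene with the motif, had 0.07 ± 0.07 (adjusted p = 0.489), and NARS2 was lower with no motif in its window. In the list of 13 known ATF4 targets, 5 were lower and 0 higher at 24 h (median -0.16), while 1 was lower and 2 were higher among the 8 other cytosolic members (median -0.00).

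At 48 h the knockdown left 2 members lower and 4 higher, in a comparison that called 9.45% of all genes (5.53% lower and 3.92% higher). The lower ones were again CARS (91.8 ± 6.75 CPM in shATF4 cells against 112.5 ± 1.30 CPM in scramble cells, n = 2 each; log2 -0.29 ± 0.08, adjusted p = 0.0192 in edgeR) and GARS (117.7 ± 1.21 CPM against 141.8 ± 8.52 CPM; -0.27 ± 0.08, adjusted p = 0.0384 in edgeR). The higher ones were VARS (182 ± 12.8 CPM against 122.4 ± 7.80 CPM; 0.57 ± 0.13, adjusted p = 0.0068 in edgeR), LARS (0.34 ± 0.09, adjusted p = 0.0179), QARS (0.34 ± 0.08, adjusted p = 0.00893) and the mitochondrial methionine enzyme MARS2 (0.35 ± 0.10, adjusted p = 0.0265). LARS had 126.4 and 124.6 CPM in shATF4 libraries against 102.8 and 95.4 CPM in scramble libraries. These calls rested on 2 libraries a group. The count of 6 fell to 0 without scramble 48 h replicate 1, to 1 without scramble replicate 2 or shATF4 replicate 2, and to 3 without shATF4 replicate 1, and it was 9 without shATF4 24 h replicate 3 and 11 without both libraries that stood apart.

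LARS, which charges leucine, shows the turn between the times. It had 179.5, 167.7 and 169.6 CPM in untreated shATF4 libraries and 110.5, 106.2 and 108.9 CPM at 24 h. In scramble libraries it had 178.7, 154.7 and 188.6 CPM untreated and 118.4, 117.1 and 129.2 CPM at 24 h. At 24 h the shATF4 libraries were below all scramble libraries, though the difference did not pass (-0.16 ± 0.07, adjusted p = 0.119), and at 48 h they were above them.

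The interaction contrast compares the 5-FU response of shATF4 cells with that of scramble cells. At 24 h it was called for 4 of the 40 members, where 2.13% of all genes were called (0.947% higher and 1.18% lower). GARS and CARS responded lower in shATF4 cells, by 0.43 ± 0.09 (log2 -0.43, adjusted p = 0.0225) and by 0.41 ± 0.09 (log2 -0.41, adjusted p = 0.0237). HARS2 and EARS2 responded higher, by 0.61 ± 0.13 (adjusted p = 0.0225) and 0.42 ± 0.09 (adjusted p = 0.0263). Under upper-quartile scaling 30.7% of all genes called in this contrast were higher, against 44.4%. In GARS the 24 h response was -0.91 ± 0.07 in shATF4 cells and -0.48 ± 0.07 in scramble cells, and in CARS it was -0.44 ± 0.06 and -0.02 ± 0.06. In EARS2 it was -0.19 ± 0.07 and -0.60 ± 0.07. HARS2 rose by 0.39 ± 0.09 in shATF4 cells (adjusted p = 0.00179) and had -0.22 ± 0.09 in scramble cells (adjusted p = 0.0645).

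Each of these interaction calls was lost without single libraries. All 4 were lost without shATF4 untreated replicate 1 or 2, the count was 1 without scramble untreated replicate 1, scramble 24 h replicate 1 or shATF4 24 h replicate 2, and 2 without scramble 24 h replicate 2 or 3. It was 8 without shATF4 24 h replicate 1. At an unadjusted p under 0.05 there were 13 members. The share of all genes at that threshold was not counted, so this number has no background. At 48 h QARS alone was called (0.40 ± 0.10, adjusted p = 0.0337), where 2.74% of all genes were called (1.30% higher and 1.44% lower), with responses of -0.76 ± 0.07 in shATF4 cells and -1.16 ± 0.07 in scramble cells. The QARS call was lost without any of 8 libraries taken singly. Its largest adjusted p was 0.199, without shATF4 48 h replicate 2. In the 48 h contrast 9 members had an unadjusted p under 0.05, again with no share of all genes to set beside them.

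Genes that work around the synthetases were counted at 48 h of 5-FU, where 28.7% of all genes were lower and 29.6% higher in shATF4 cells and 30.0% were lower and 30.6% higher in scramble cells. There 6 of 10 mitochondrial tRNA charging partners fell and 0 rose in shATF4 cells, and 5 fell and 1 rose in scramble cells. Among them were GATB, a subunit of the enzyme that completes mitochondrial glutaminyl-tRNA (-1.15 ± 0.11 in shATF4 cells, adjusted p = 1.45e-08, and -1.0 ± 0.11 in scramble cells, adjusted p = 7.26e-08), and TUFM, the mitochondrial elongation factor (-0.63 ± 0.07, adjusted p = 2.28e-07, and -0.92 ± 0.07, adjusted p = 9.35e-10). Of 17 tRNA maturation and proofreading genes 9 fell and 0 rose in shATF4 cells and 9 fell and 1 rose in scramble cells. ELAC2, which trims the 3′ ends of tRNA, fell by 1.02 ± 0.07 in shATF4 cells and by 1.11 ± 0.07 in scramble cells, and the tRNA methyltransferase NSUN2 by 0.89 ± 0.07 and 1.09 ± 0.07. Of 17 genes of RNA polymerase III, its factors and its repressor, 10 fell and 3 rose in shATF4 cells and 9 fell and 1 rose in scramble cells, led by the subunit POLR3G (-1.38 ± 0.15 and -1.88 ± 0.17). Of 4 tested genes of elongation factor 1, 3 fell and 0 rose in shATF4 cells and 3 fell and 1 rose in scramble cells. EEF1A1, which delivers charged tRNA to the ribosome, fell by 1.45 ± 0.07 in each line, and EEF1A2 had 0.19 ± 0.13 in shATF4 cells (adjusted p = 0.204) and rose by 0.93 ± 0.13 in scramble cells (adjusted p = 1.84e-06).

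The amino acid response had its own pattern. Of 20 genes of uncharged tRNA sensing and the amino acid response, ATF4 among them, 10 were lower and 1 was higher in shATF4 cells at 24 h, and 2 were lower and 0 higher in untreated cells. Over all genes 9.89% were lower and 10.5% higher at 24 h, and 1.84% lower and 1.08% higher in untreated cells. CHAC1, a glutathione-degrading enzyme, fell by 0.88 ± 0.16 at 24 h (adjusted p = 0.000673), and the serine synthesis enzyme PHGDH by 1.18 ± 0.09 (adjusted p = 2.01e-08). At 48 h 5 were lower and 1 was higher, against 5.53% and 3.92% of all genes. Against untreated cells, 10 of the 20 fell and 3 rose in shATF4 cells at 24 h of 5-FU, and 8 fell and 6 rose in scramble cells. At 48 h 9 of the 20 fell and 8 rose in shATF4 cells, and 6 fell and 7 rose in scramble cells. CHAC1 rose by 1.35 ± 0.17 in shATF4 cells and by 1.48 ± 0.16 in scramble cells, and SLC3A2, a chain of amino acid transporters, by 0.95 ± 0.07 and 1.01 ± 0.07.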

How the data were processed

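RNA from 16 libraries of SW620 cells was measured by poly(A)-selected sequencing, per the labels' protocols. The deposited values are raw counts per gene, in whole numbers. Per the submitters' processing notes, the authors used featureCounts 1.5.0-p3 and the GRCh38 build. The sources used here do not give the aligner, the strand setting or the annotation release. The members and lists were chosen with earlier results of these data known, so no list is independent support.

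Counts of 58735 genes were filtered with filterByExpr in edgeR 4.0.16 (R 4.3.3), leaving 17309 genes with 99.9% of counts. Library sizes were scaled by TMM, and 1 quasi-likelihood model with the 6 groups was fitted to all 16 libraries (10 residual degrees of freedom, common biological coefficient of variation 0.0847), with the groups of 2 libraries sharing the spread of the others. P-values were adjusted by Benjamini-Hochberg over the 17309 genes in each of 11 comparisons, and standard errors came from the F statistic. Gene length came with the authors' deposited table. Promoters are RefSeq windows of GRCh38.p14, matched by current symbol.

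The text names up to 4 called members with the largest rise and fall in each comparison, members called in an interaction, pairs called in opposite directions, and members called most often. Others named singly, beside counts or in lists, were chosen after their values were seen. Of each further list up to 4 genes with the smallest adjusted p were open to naming. Alternatives were median-of-ratios and upper-quartile scaling, DESeq2 1.42.0, no filter, only the groups compared, the replicate number as a block, each library left out, and both libraries that stood apart left out. Replicates differed beyond sampling noise in every group (chi-square per degree of freedom 1.82 to 29.4), so none was treated as a duplicate. A planned comparison of the proteins was not made.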

Additional observations from a re-analysis of the deposited data

Results flagged for a closer look

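The response to 24 h of 5-FU differed between the lines by an interaction test in 4 members, and the response to 48 h in 1. For GARS the difference (shATF4 minus scramble, log2) was -0.43 and for CARS -0.41. For EARS2 it was 0.42 and for HARS2 0.61. For QARS at 48 h it was 0.40. EARS2 and HARS2 overlap genes with more counts than their own; the sources used here do not give the strand setting of the counting.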

How the results depend on the processing

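Of 207 member calls 155 held in all 23 alternatives, 52 were lost in at least 1, and 0 reversed. The counts of members called in the comparisons of 5-FU with untreated cells and of 48 h with 24 h stayed within 1.5 times the main count in each alternative. Counts that moved further were these. In untreated cells the knockdown count was 1 without both libraries that stood apart (main 0). At 48 h the knockdown count was 3 with no filter and 11 without both libraries, and 0 to 9 with a library left out (main 6). The 24 h interaction count was 7 with DESeq2 and 0 to 8 with a library left out (main 4). The 48 h interaction count was 2 with the replicate block, 2 with only the groups compared, 4 without both libraries, and 0 to 3 with a library left out (main 1). Numbers did not pair the samples (1 of 36 same-number correlations over 0.1, range -0.077 to 0.116). Under upper-quartile scaling the cytosolic and mitochondrial medians were -0.26 and -0.20 at 24 h in scramble cells, -0.53 and -0.67 at 48 h in shATF4 cells, -0.53 and -0.85 at 48 h in scramble cells, and, for 48 h against 24 h, -0.11 and -0.36 in shATF4 cells and -0.26 and -0.46 in scramble cells. The mitochondrial median at 24 h in scramble cells was -0.33 without both libraries. With a library left out the mitochondrial median ranged from 0.058 to 0.12 (knockdown at 48 h), -0.33 to -0.25 (24 h, scramble), -0.89 to -0.74 (48 h, shATF4), -0.58 to -0.51 (48 h against 24 h, scramble), -0.48 to -0.40 (48 h against 24 h, shATF4) and 0.037 to 0.13 (24 h interaction), and the cytosolic 48 h interaction median from -0.11 to -0.0090. The cause was not tested. Counts over all genes moved by more than 1.5 times in the knockdown and interaction comparisons: to 891 without both libraries and 277 to 774 with a library left out in untreated cells (main 506), 2189 with only the groups compared and as few as 2067 with a library left out at 24 h (3533), 2748 with only the groups compared, 3021 without both libraries and 600 to 2463 with a library left out at 48 h (1636), 798 with no filter, 644 with the replicate block, 173 with only the groups compared, 696 with DESeq2 647 without both libraries and 65 to 1188 with a library left out in the 24 h interaction (369), and 1204 without both libraries and 136 to 991 with a library left out in the 48 h interaction (475). For 48 h against 24 h in scramble cells the count was 4363 without scramble 48 h replicate 2 (6621). Depth limits SARS2 most, with 24 counts in its lowest library.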
